A study of Homo sapiens with 6 samples.

Results

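Long intergenic noncoding RNA genes carry the symbol LINC followed by a number when they lie outside protein-coding genes and have no functional name. They were taken from the transcript count table of HMC3 cells by that symbol, the counts of all transcripts of a gene were summed, and genes with at least 10 counts in at least 3 of the 6 libraries were kept. This left 152 of the 1031 LINC genes listed in the table, among 12865 genes of 31768 that passed the same limit. The 152 genes were thus chosen by their symbol and selected on their counts in these same libraries. HMC3, an immortalized line derived from human microglia, supplied all RNA, which came from 3 independent control cultures (0 Gy) and 3 independent cultures given 15 Gy of X-rays, all harvested at 24 h in the same medium. Polyadenylated RNA was read as PCR-amplified full-length cDNA on Oxford Nanopore flow cells. The comparison asked how LINC genes differed between irradiated and control cells, at gene, transcript and isoform level, and no other cell type, dose or time was sequenced.

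Long intergenic noncoding RNAs are made by RNA polymerase II and are often capped, spliced and polyadenylated like messenger RNAs, but they encode no known protein. They are known for low levels, for restriction to few cell types, and in some cases for acting on chromatin, on nearby genes or as binding partners of proteins and microRNAs. The symbol is a naming class and not a pathway, so members share no known function. Several have been studied in tumours or infection, including LINC01116 (also TALNEC2), LINC00958 (also BLACAT2), LINC01605 and LINC02574 (also HEAL, an RNA described in HIV-1 infection).

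Libraries held 4870897 to 9082409 counts, and the 152 LINC genes took 0.124 to 0.136% of them in controls and 0.141 to 0.16% in irradiated cultures. Values are given as CPM, counts scaled to an equal library size after TMM, a normalization that assumes most genes do not differ between libraries. The TMM factors were 0.845, 0.788 and 0.931 in controls and 1.24, 1.1 and 1.18 in irradiated cultures. The sum of the 152 genes was 1505 ± 72.5 CPM in controls and 1296 ± 53.7 in irradiated cultures (SD, n = 3 each), so that the direction of the summed level turns between the share of the library and TMM scale. With library totals alone the median over all genes moves from 0.08 to 0.53 on the log2 scale, and that of LINC genes from -0.28 to 0.19. Control 3 lay nearer to the irradiated libraries than controls 1 and 2 did, with a Pearson's r across genes, on log2 CPM, of 0.9585 to 0.973 against 0.9163 to 0.9484. Of 10 microglial markers, CX3CR1, P2RY12, TMEM119, ITGAM and TYROBP had 0 counts in every library and 7 of 10 were under 1 CPM in all. Of 8 fibroblast or pericyte markers, COL3A1 and LUM had 0 counts in every library and 3 of 8 were under 1 CPM in all. The 8 markers summed to 305 to 327 against 264.8 to 317.8 CPM in control and irradiated cultures, most of it COL1A1 and THY1. Among them ACTA2 rose from a mean of 4.22 to 14.3 CPM and COL1A2 from 2.97 to 7.69, while THY1 went from 128 to 82.1 under the fold limit (edgeR adjusted p = 0.0018, 0.00671 and 0.00547). Their part in the LINC results was not tested.

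Most LINC genes were detected with few reads. Their mean levels ran from 0.852 to 249.8 CPM with a median of 3.21, beside 10.1 for all 12865 genes tested, on a scale of reads per gene not divided by length. Per kilobase of the longest transcript in GENCODE release 29, the median was 1.81 CPM for the 144 LINC genes with a length and 3.15 for the 12197 genes with one. Some counted transcripts are not in that release, so the lengths need not be those of the transcripts counted. A mean of at least 10 CPM was reached by 29 LINC genes, 121 lay from 1 to 10 CPM and 2 lay under 1 CPM. For 68 genes the mean count per library was under 20, and only 72 had 10 counts in all 6 libraries. Just inside the count limit stood LINC02908, LINC01556 and LINC03113, each with 10 as the third-highest count. Just outside stood LINC01356, LINC00842 and LINC01151, each with 9. LINC01719 and LINC02980 reached 10 counts in the 3 irradiated libraries only, and LINC00265 in the 3 control libraries only, so that their groups had to differ to pass the limit.

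GENCODE release 29 (GRCh38) held 144 of the 152 genes, of which 119 were typed as lincRNA, 14 as processed transcript, 7 as antisense, 2 as bidirectional promoter lncRNA and 1 as sense overlapping. The remaining gene, LINC02693 (also C17orf51, chr17:21428381-21574517), was typed as protein-coding in that release. Exons of 16 members overlapped those of another gene that passed the count limit, and overlap with other genes was not searched. A stretch of at least 300 bases that was at least 95% identical to another gene's transcripts was found in 27 of the 144. Counts of those genes can be split or shared with their copies.

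LINC02574, LINC01116, LINC02762 and LINC00265 had the smallest edgeR adjusted p of the genes called below. Their promoters are printed so that the start of each can be found. Each runs from 250 bases before to 50 bases after the RefSeq start (GRCh38.p14). The windows lie at chr1:27662673-27662972 (minus strand) for LINC02574, chr2:176637560-176637859 (minus strand) for LINC01116, chr11:112270499-112270798 (plus strand) for LINC02762 and chr7:39733318-39733617 (plus strand) for LINC00265. Each is written 5′ to 3′ on the gene's strand. Capitals mark matches, on either strand and thus in part as the reverse complement, to the GC box GGGCGG. They also mark the CCAAT box and the AP-1 motif, which was searched as TGANTCA.
LINC02574: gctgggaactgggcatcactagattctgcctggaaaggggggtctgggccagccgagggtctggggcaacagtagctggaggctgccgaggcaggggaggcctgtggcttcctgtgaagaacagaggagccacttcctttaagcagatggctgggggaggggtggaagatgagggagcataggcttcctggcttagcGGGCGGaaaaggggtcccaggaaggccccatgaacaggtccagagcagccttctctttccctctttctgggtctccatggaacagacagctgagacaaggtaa
LINC01116: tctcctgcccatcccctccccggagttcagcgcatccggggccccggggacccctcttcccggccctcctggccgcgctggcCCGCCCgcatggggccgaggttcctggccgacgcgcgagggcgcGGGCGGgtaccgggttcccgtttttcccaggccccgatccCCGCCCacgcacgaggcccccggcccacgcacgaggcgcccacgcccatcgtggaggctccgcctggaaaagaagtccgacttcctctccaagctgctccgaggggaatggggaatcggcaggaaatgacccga
LINC02762: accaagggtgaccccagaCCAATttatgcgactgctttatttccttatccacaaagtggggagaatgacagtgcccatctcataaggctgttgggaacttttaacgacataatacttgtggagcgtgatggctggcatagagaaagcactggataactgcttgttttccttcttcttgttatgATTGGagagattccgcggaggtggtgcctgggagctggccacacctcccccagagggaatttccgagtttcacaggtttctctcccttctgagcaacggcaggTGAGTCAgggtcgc
LINC00265: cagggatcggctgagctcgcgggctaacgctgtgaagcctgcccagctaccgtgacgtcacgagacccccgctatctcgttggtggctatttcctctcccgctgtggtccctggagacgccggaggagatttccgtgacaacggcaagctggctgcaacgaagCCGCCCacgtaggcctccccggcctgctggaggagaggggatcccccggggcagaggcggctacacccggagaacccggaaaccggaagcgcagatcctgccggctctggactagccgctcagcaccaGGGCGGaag

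LINC02574, LINC01116 and LINC00265 each held a GC box, and LINC02762 held the CCAAT box and the AP-1 motif without a GC box. Among the 113 LINC promoters in the RefSeq table, the GC box was found in 41.6%, the CCAAT box in 40.7%, the AP-1 motif in 13.3%, the TATA box (searched as TATAAA) in 9.74% and the p53 half-site in 6.2%. Among all 27305 promoters of the table the shares were 44.6%, 35.7%, 7.76%, 12% and 6.54%. These are counts of letters in a fixed window, and binding was not measured.

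At gene level, 12 of the 152 LINC genes were differentially expressed after irradiation. LINC02574 rose and 11 fell, namely LINC01116, LINC02762, LINC00265, LINC00668, LINC01204, LINC02104, LINC02742, LINC01189, LINC01635, LINC01605 and LINC02755. A call required a Benjamini-Hochberg adjusted p below 0.05 in edgeR's quasi-likelihood fit of all 12865 genes and more than a 2-fold difference, a log2 fold change beyond 1 in either direction. Of all genes tested, 6.02% were called, 4.05% higher and 1.97% lower, beside 7.89% of LINC genes, 0.658% higher and 7.24% lower. By the adjusted p alone, 2 LINC genes were higher and 22 lower (1.32% and 14.5%, against 10.5% and 13.6% of all genes). An unadjusted p under 0.05 was reached by 44 LINC genes, or 28.9%, against 38.3% of all genes. In RNA from whole cultures, fewer cells that express a gene and less of its RNA per cell cannot be told apart.

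LINC02574 (chr1:27660328-27662722) was the LINC gene with the highest mean CPM among the 12. Its level was 35, 31.6 and 55.6 CPM in controls 1 to 3 and 120.2, 90.2 and 107.6 in irradiated cultures 1 to 3. Every irradiated culture lay above every control, and control 3 was the highest control. LINC02574 was 2.58-fold higher after irradiation (log2 fold change 1.37 with a standard error of 0.196, edgeR adjusted p = 0.00133), and rested on 144 to 470 counts in controls and 632 to 940 in irradiated cultures. The call was kept in 13 of 13 alternative settings that tested the gene, with log2 fold changes from 1.21 to 1.81. All but a few of its counts came from 1 transcript, ENST00000681370, which had 142, 211 and 470 counts in controls and 939, 630 and 880 in irradiated cultures. Since it kept a single transcript, the filter of the paper, which requires 2, leaves the gene out.

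LINC01116 (chr2:176629589-176637931), near the HOXD cluster and studied in glioma, was the most abundant of the genes that fell. It stood at 35.7, 36.6 and 22.1 CPM in controls and 12.8, 15.1 and 8.44 in irradiated cultures. The groups did not overlap, and control 3 was the lowest control. It was 2.59-fold lower after irradiation (log2 fold change -1.37 with a standard error of 0.252, edgeR adjusted p = 0.00295). LINC02762 (also lnc-PTS-1, chr11:112270749-112362534) was at 17.2, 23.9 and 15.8 CPM in controls and 6.14, 9.28 and 9.42 in irradiated cultures, again without overlap. It was 2.3-fold lower (log2 fold change -1.2 with a standard error of 0.246, edgeR adjusted p = 0.00464).

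LINC00668 (chr18:6919496-6929966), studied in carcinomas, was at 15.5, 9.64 and 6.15 CPM in controls and 0.639, 2.14 and 4.16 in irradiated cultures. Irradiated culture 1 was the lowest and irradiated culture 3 approached control 3, without reaching it. The log2 fold change was -2.12 with a standard error of 0.489 (edgeR adjusted p = 0.00791). LINC00265 (chr7:39733632-39793092) had 13, 28 and 33 counts in controls and 7, 8 and 4 in irradiated cultures, or 3.16, 4.15 and 3.9 against 0.895, 1.14 and 0.489 CPM. It was 4.45-fold lower (log2 fold change -2.15 with a standard error of 0.462, edgeR adjusted p = 0.00549). Since it passed the count limit through the control libraries only, a difference was built into its selection. With DESeq2 in place of edgeR, LINC00265 was not called. Stretches of LINC00265 match 11 other genes at 95% identity or more, the longest being 768 bases at 96.1% to GTF2IP13.

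The 7 other genes that fell were all under 10 CPM on average. LINC01204 (chrX:45505388-45630202) had 18, 44 and 32 counts in controls and 13, 8 and 14 in irradiated cultures, a log2 fold change of -1.68 with an adjusted p of 0.00832 from edgeR. LINC02104 (chr5:39520431-39524708) had 8, 34 and 51 against 10, 12 and 7 counts, and its lowest control in CPM (1.94) lay just above the highest irradiated culture (1.71). LINC02742 (chr11:28702615-29063821) and LINC02755 (chr11:29335878-29594295) lie on the same arm of chromosome 11, with log2 fold changes of -1.58 and -2.06. LINC02755 rested on 22, 16 and 22 counts in controls and 1, 7 and 10 in irradiated cultures. LINC01189 (chr9:62515191-62522018), which has a copy 99.6% identical over 3325 bases, was at 3.64, 4.15 and 4.85 against 1.15, 2 and 1.71 CPM (log2 fold change -1.39, adjusted p = 0.0198, edgeR). LINC01605 (chr8:37421341-37554183) had 20, 35 and 36 against 2, 16 and 14 counts, a log2 fold change of -1.75. LINC01635 (chr1:22023990-22026048) alone among the 12 had overlapping groups, since control 3 at 2.36 CPM lay below irradiated culture 2 at 3.57 (log2 fold change -1.95, adjusted p = 0.0217, edgeR).

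**Figure D1:**
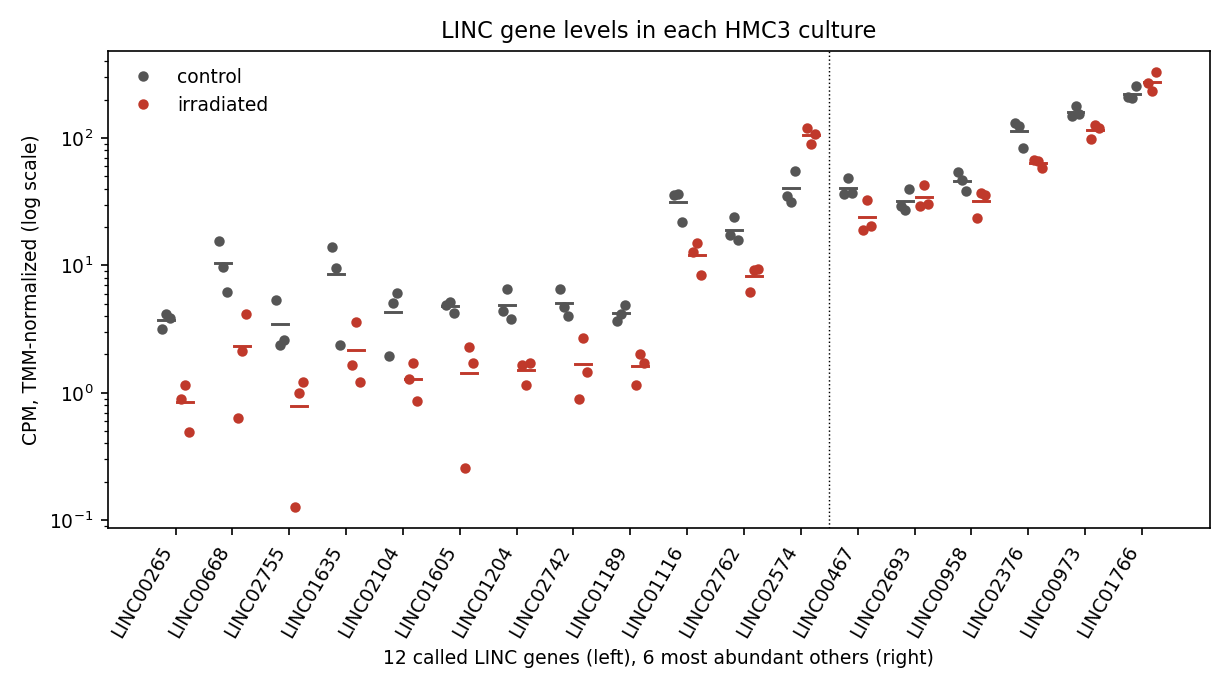
Level of 18 LINC genes in each of the 6 HMC3 cultures, in TMM-normalized CPM on a log scale, with control cultures in grey, irradiated cultures in red and a bar at each group mean. The 12 called genes stand left of the dotted line, ordered by log2 fold change, and the 6 most abundant other members stand right of it. LINC02574 is the only called gene whose irradiated cultures lie higher, and of the called genes only LINC01635 has overlapping groups.

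Of the 11 genes that fell, 9 had a mean under 10 CPM, 3 had 10 counts in all 6 libraries, and they lay on 9 chromosomes. The groups did not overlap for 10 of these 11, and for 41 of all 152 LINC genes (33 lower and 8 higher, 27% of members, against 42.9% of all genes tested). Without control 2, 7 LINC genes were called, with the gain of LINC00667 and the loss of LINC01189, LINC01204, LINC01605, LINC01635, LINC02104 and LINC02762 (log2 fold changes -0.99 to -1.84, adjusted p 0.0278 to 0.0828, edgeR). Leaving out control 1, irradiated culture 1 or irradiated culture 3 cost 3, 5 and 5 of the 12 calls, all with log2 fold changes of -1.19 or lower and adjusted p from 0.0535 to 0.0913. LINC00265, LINC00668, LINC01116 and LINC02574 kept their calls in all 6 fits that left out a library. The count limit was not applied again in those fits. LINC00265 had passed it through the control libraries only, so its kept calls carry the difference built into its selection. With library totals in place of TMM, LINC00265, LINC00668, LINC01204 and LINC02574 remained called, and LINC01116 was at -0.90.

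The median log2 fold change of LINC genes was -0.28, with 101 below 0 and 51 above, while all genes tested had a median of 0.08. With library totals alone both medians were above 0, at 0.19 for LINC genes and 0.53 for all genes, and the gap was -0.34 in place of -0.35. Without control 2 the gap was -0.25, and without control 3 it was -0.47. Among genes with at least 10 CPM the median was -0.52 for 29 LINC genes and -0.04 for 6477 genes. Among genes under 10 CPM it was -0.18 for 123 LINC genes and 0.19 for 6388 genes. For the 72 LINC genes with 10 counts in all 6 libraries it was -0.42, beside 0.02 for 10150 genes. For the 106 LINC genes with no near-identical copy in the annotation and no exon overlap with another tested gene it was -0.29. Across 144 LINC genes, which are not independent replicates, Spearman's rho of log2 fold change with transcript length was 0.0761. Their longest transcripts had a median of 2094.5 bases, against 3492 for all tested genes with a length. The gap between the medians narrowed with a length offset, and the part of length in it was not tested.

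**Figure D2:**
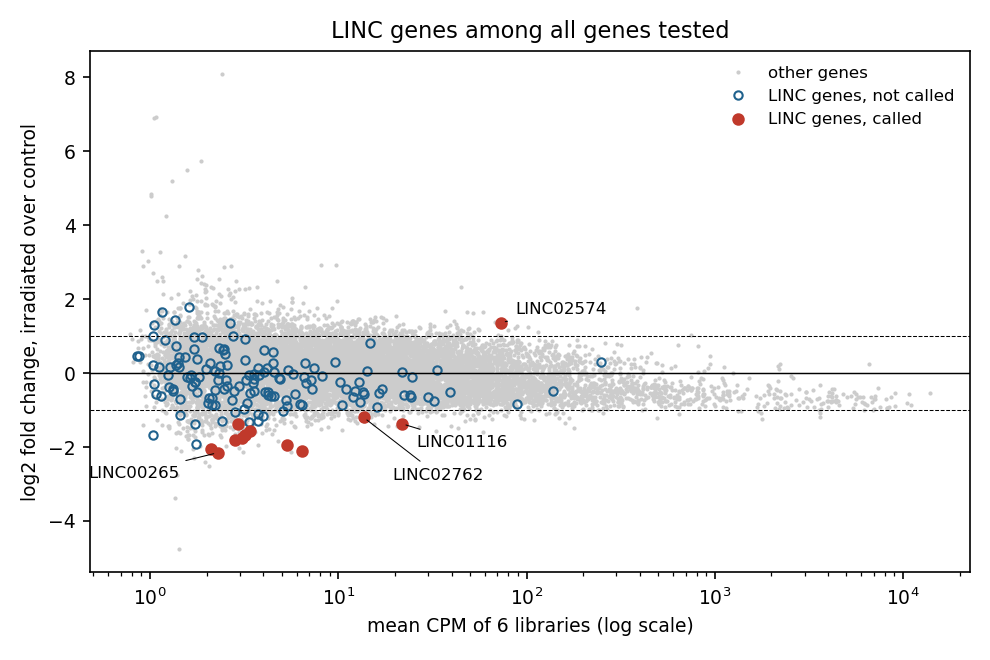
Log2 fold change of each of 12865 genes, irradiated over control, against its mean CPM on a log scale, with LINC genes as blue circles where not called and red points where called, and dashed lines at the fold limits. LINC genes cluster at the low end of expression (median 3.21 CPM) with a median log2 fold change of -0.28, which becomes 0.19 with library totals alone, against 0.08 and 0.53 for all genes.

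Other noncoding classes named by symbol also lay below the median of all genes on this scale. Of all genes tested, 4.05% were called higher and 1.97% lower, and 13.6% were lower by the adjusted p alone. The 293 antisense genes had a median of -0.22, with 7 called higher and 16 lower. The 129 divergent transcripts, which start at the promoter of a coding gene on the opposite strand, had a median of -0.38, with 4 called higher and 9 lower. The 26 snoRNA host genes had a median of -0.72, with 0 called higher and 7 lower, and 18 of them were lower by the adjusted p alone. Their median level was 48.15 CPM, beside 3.21 for LINC, 3.87 for antisense and 3.37 for divergent genes. The part of level in these counts was not tested. The 20 microRNA host genes had a median of -0.17 and no call in either direction, and 2 were lower by the adjusted p alone. LINC genes therefore stood between the antisense and the divergent class in their median, and differences between classes were not tested.

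**Figure D3:**
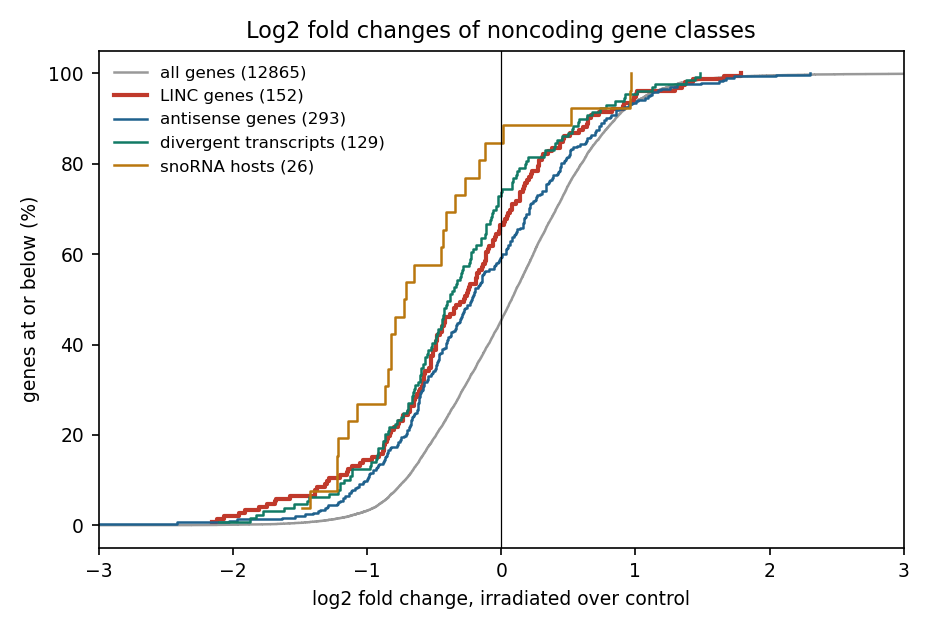
Cumulative share of genes, in percent, at or below each log2 fold change, for all 12865 genes tested (grey), 152 LINC genes (red), 293 antisense genes (blue), 129 divergent transcripts (green) and 26 snoRNA host genes (orange). The 4 noncoding curves lie left of the grey curve at the lower quartile, the median and the upper quartile. On the TMM scale the medians are -0.28, -0.22, -0.38 and -0.72 against 0.08. The upper quartiles are 0.17, 0.34, 0.08 and -0.29 against 0.5. With library totals alone the medians of LINC genes and of all genes are 0.19 and 0.53.

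Of the 4 most abundant LINC genes, LINC02574 was called higher and none was called lower. LINC01766 (chr19:35597907-35601501) had the highest level per kilobase of its longest transcript in GENCODE release 29 as well as by reads. That release lacks some of the transcripts counted for LINC01766. The gene stood at 208.4, 205.1 and 255.6 CPM in controls and 270, 232.4 and 327.5 in irradiated cultures. Its groups overlapped, and the log2 fold change of 0.31 did not pass (adjusted p = 0.128, edgeR). LINC00973 (chr3:98981058-98983096) stood at 148.2, 179 and 154.4 CPM in controls and 99, 126.5 and 120.6 in irradiated cultures. LINC02376 (chr12:127274467-127284283) stood at 130.7, 125.3 and 84.2 against 66.9, 66 and 57.9. In both the groups did not overlap and the adjusted p passed, at 0.0198 and 0.00386 (edgeR), while the log2 fold changes of -0.48 and -0.83 stayed under the fold limit. With library totals alone the log2 fold change of LINC00973 was -0.02 and that of LINC02376 -0.36, neither with an adjusted p under 0.05.

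Together with LINC02574, these were the 4 most abundant members and held 39.2% of the LINC total. Their sum was 537.7 ± 14 CPM in controls and 561.6 ± 49.5 in irradiated cultures (SD, n = 3 each), within the spread of the irradiated cultures on the TMM scale. As a share of the library they took 0.044 to 0.0512% in controls and 0.0565 to 0.0726% in irradiated cultures, without overlap. The other 148 members summed to 967.1 ± 72 CPM in controls and 734.4 ± 42.3 in irradiated cultures. The lowest control sum of those 148, 907.4, lay above the highest irradiated sum, 774.1, on the TMM scale. As a share of the library the order was turned, with 0.0785, 0.0812 and 0.0845% in controls and 0.0858, 0.0848 and 0.0874% in irradiated cultures.

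LINC00467 (chr1:211382803-211435333) was at 36.2, 48.4 and 37 CPM against 18.9, 32.6 and 20.6, and LINC00339 (chr1:22024558-22031223) at 37.9, 41.4 and 30.5 against 21.6, 25.4 and 23. LINC02802 (chr1:144227030-144250288), with a 99.2% identical stretch of 532 bases in another gene, was at 24, 35.7 and 28.8 against 17.8, 16 and 23. All 3 were lower without overlap and passed the adjusted p but not the fold limit, with log2 fold changes of -0.76, -0.65 and -0.65. LINC00958 (chr11:12961842-12989548) was at 53.7, 46.7 and 38.5 against 23.7, 37 and 35.6 CPM, a log2 fold change of -0.52 with an adjusted p of 0.0639 from edgeR. LINC02693 and LINC01278 (chrX:63343227-63561071) had overlapping groups and log2 fold changes of 0.08 and -0.12, and LINC01278 turned to 0.34 with library totals alone. LINC03104 (chr21:5553637-5614880) and LINC03105 (chr21:7430659-7469007), which share nearly identical sequence with other genes, were 1.5-fold lower each, with adjusted p of 0.0412 and 0.0363 (edgeR).

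On the side of higher levels, 1 LINC gene besides LINC02574 passed the adjusted p. This was LINC01126 (chr2:43227210-43228855), named here after its values were seen. It stood at 7.77, 11 and 12.6 CPM in controls and 15.7, 19.8 and 21.2 in irradiated cultures, a 1.77-fold difference under the fold limit (log2 fold change 0.83 with a standard error of 0.228, edgeR adjusted p = 0.0193). The other members with the largest increases among non-overlapping groups rested on few reads. LINC01719 (chr1:146052566-146061948) had 0, 6 and 9 counts in controls and 19, 12 and 29 in irradiated cultures, and LINC02980 (chr6:25992662-26001775) had 1, 5 and 9 against 13, 12 and 22. LINC01535 (chr19:37251912-37265535) and LINC00471 (chr2:231508426-231514339) had mean levels of 1.59 and 1.9 CPM in controls and 3.74 and 3.61 in irradiated cultures. None of the 4 was called, with adjusted p of 0.0546, 0.0814, 0.0724 and 0.192 (edgeR). LINC01719 and LINC02980 passed the count limit through the irradiated libraries only, so an increase was built into their selection. With library totals alone LINC01719, LINC02980, LINC01535, LINC01126 and LINC02043 were called higher besides LINC02574. LINC02043 is likewise named after its values were seen. Most calls over all genes were also higher in that setting, with counts in the closing section, so these calls cannot be read as particular to LINC genes.

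At transcript level, 76 of 1146 LINC transcripts were differentially abundant, 4 higher and 72 lower. That is 0.349% higher and 6.28% lower, against 3.44% and 4.39% of the 76581 transcripts tested. The 76 came from 31 LINC genes, of which 10 were called as genes and 21 were not, and 2 called genes, LINC01189 and LINC01605, had no called transcript. Of the 4 transcripts that rose, 1 belonged to LINC02574, 2 to LINC00630 and 1 to LINC00680, the latter 2 genes being named after their values were seen. LINC00680, with 43 kept transcripts, was the only member with called transcripts in both directions. DESeq2 called 19 of the LINC transcripts in place of 76, 1 higher and 18 lower. The share it called over all transcripts is not given here, so the drop cannot be read as particular to LINC transcripts.

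Transcripts of a gene were not independent of each other. In LINC02376, 5 transcripts each held between 19.2 and 19.9% of the gene's kept counts in every library. In LINC01116, ENST00000295549 had 37, 59 and 44 counts in controls and 20, 22 and 15 in irradiated cultures, and ENST00000703418 had 36, 59 and 43 against 19, 22 and 15. Both fell by nearly the same amount, with log2 fold changes of -1.61 and -1.62. In LINC03104, ENST00000619252 had 44, 76 and 66 counts against 27, 45 and 25, with a log2 fold change of -1.24. In LINC00973, ENST00000755842 had 42, 92 and 100 against 35, 52 and 53, with a log2 fold change of -1.02. Both lay in genes that were not called.

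No LINC isoform passed the limits for a switch in edgeR's usage test, an adjusted p under 0.05 with a change of at least 0.1 in isoform fraction (dIF, irradiated minus control). Of 74843 isoforms tested in all genes, 0.404% passed, and of 1137 LINC isoforms in 142 genes 0 did. An unadjusted p under 0.05 was reached by 77 LINC isoforms, or 6.77%, against 13.4% of all isoforms. An adjusted p under 0.05 was reached by 5 LINC isoforms (0.44%, against 4.43% of all), with dIF of at most 0.0349, of which 4 belonged to LINC00973 and 1 to LINC02802. In limma's usage test 3 LINC isoforms passed (0.264%, against 1.22% of all isoforms), 1 each in LINC00265, LINC03104 and LINC00630.

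The largest dIF of those 3 was in LINC00265, where the remaining reads after irradiation came almost wholly from ENST00000850558. That transcript had 2, 4 and 10 counts in controls and 6, 7 and 4 in irradiated cultures, with overlapping groups. The other LINC00265 transcripts together had 11, 24 and 23 counts in controls and 1, 1 and 0 in irradiated cultures. Over the 8 transcripts in the usage test, ENST00000850558 held 24.8 ± 5.63% of the gene in controls and 95.2 ± 8.25% in irradiated cultures (SD, n = 3 each), a dIF of 0.705. The adjusted p was 0.0516 in edgeR's usage test, 0.0036 in limma's, and 0.0437 in edgeR's with the replicate number as a block. The fractions of the irradiated cultures rest on 4 to 7 counts each. LINC00265 passed the count limit through the control libraries only, so low counts after irradiation were built into its selection. The usage tests were run on counts selected in that way.

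**Figure D4:**
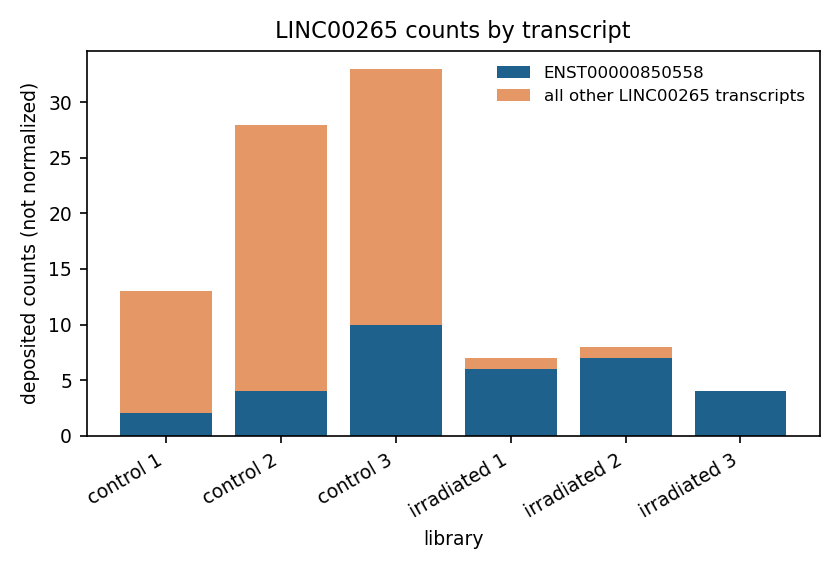
Deposited counts of LINC00265 in each of the 6 libraries, not normalized, split into ENST00000850558 (blue) and all other LINC00265 transcripts (orange). The orange part holds 11, 24 and 23 counts in the control libraries and 1, 1 and 0 in the irradiated libraries, while the blue part overlaps between the groups.

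Some noncoding RNAs act on, or share a promoter with, a nearby coding gene, so each LINC gene was set beside its nearest tested protein-coding gene. The 144 LINC genes with coordinates lay a median of 45.2 kb from that neighbour, and 10 neighbours were called (6.94%, against 6.02% of all genes tested). Across the 144 pairs Pearson's r of the log2 fold changes was 0.0698 and Spearman's rho 0.0676, and 72 pairs had the same sign. For 39 pairs within 10 kb, r was -0.009. Pairs on opposite strands with starts within 2 kb were counted as head to head, also where the genes overlapped. For the 7 head-to-head pairs r was 0.359 with 4 of the same sign. For the 5 other overlapping pairs it was 0.403 with 3 of the same sign, both over very few pairs. Pairs share libraries and scaling, and some share a neighbour.

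LINC02574 lies 3.34 kb from IFI6, an interferon-induced gene on the same strand, whose log2 fold change was -0.14 (adjusted p = 0.488, edgeR) beside 1.37 for LINC02574. LINC01126 lies 0.601 kb from ZFP36L2, which encodes an RNA-binding protein that destabilizes messenger RNAs, head to head on opposite strands. The log2 fold changes were 0.83 for LINC01126 and 0.48 for ZFP36L2, whose adjusted p was 0.193 (edgeR). LINC02762 lies 0.794 kb from PTS, an enzyme of tetrahydrobiopterin synthesis, which was at -0.05 (adjusted p = 0.834, edgeR). LINC00339 and LINC01635 overlap each other on opposite strands and lie 21.4 and 26.6 kb from CDC42, a small GTPase of the cytoskeleton. CDC42 was at -0.67 (adjusted p = 0.00366, edgeR), beside -0.65 for LINC00339 and -1.95 for LINC01635. Whether the counting kept strands apart is not stated, so reads of that overlapping pair cannot be told apart here. LINC00471 was at 1.01 and its neighbour NCL, the nucleolin gene, at -0.66 (adjusted p = 0.00207, edgeR).

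**Figure D5:**
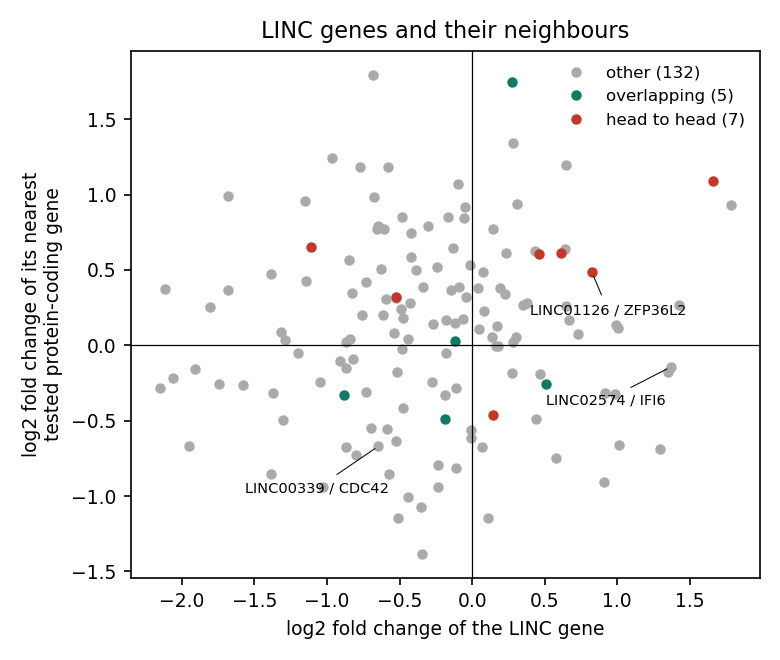
Log2 fold change of the nearest tested protein-coding gene against that of the LINC gene for 144 pairs. The 7 head-to-head pairs are in red, the 5 other overlapping pairs in green and the 132 remaining pairs in grey. The points fill all 4 quadrants, with the same sign in 72 of 144 pairs.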

How the data were processed

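The authors aligned the nanopore reads to GRCh38 with minimap2, assembled transcripts with StringTie2 and quantified them with Salmon, while versions, annotation release, strand handling and use of molecular identifiers are not given in the sources used. Deposited were raw counts in whole numbers for each transcript in each library, and no per-sample column was left unused. Samples were grouped by their labels into 3 control and 3 irradiated cultures.

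Counts were summed per gene and genes reaching 10 counts in 3 or more libraries were kept. Transcripts had to reach 3 counts in 1 or more libraries. Both levels were fitted in edgeR 4.0.16 under R 4.3.3 (TMM factors, robust glmQLFit, glmQLFTest). Calls needed a Benjamini-Hochberg adjusted p below 0.05 over all features and a log2 fold change beyond 1 in either direction. Standard errors are the size of the log2 fold change over the square root of F. Isoform usage was tested with diffSpliceDGE, on fractions of kept counts. The alternatives were RLE factors, library totals, other count filters, the filter of the paper, DESeq2 1.42.0, limma 3.58.1, a length offset, the labels' replicate number as a block, and leaving out single libraries. A two-sided exact permutation test of 3 against 3 cannot go below 0.1 and was not used. The steps were tested on simulated data. PCR copies may be counted, so counts are not independent molecules.

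The members, gene classes and marker lists were chosen with earlier results of these data known. Named genes are all called members, the 10 with the highest mean CPM, the 5 largest increases and decreases among non-overlapping groups with at least 1 CPM, members with the 10 called transcripts of smallest adjusted p, and those nearest the count limit. The summed level of the microglial markers is not reported here. Coordinates and gene types come from GENCODE release 29, and promoters and synonyms from RefSeq (GRCh38.p14). Tables and figures used Python 3.11.15 with pandas 2.3.3 and matplotlib 3.10.9.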

Additional observations from a re-analysis of the deposited data

How the results depend on the processing

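The count of called LINC genes (12, 1 higher and 11 lower) was 10 with DESeq2, 12 with RLE factors and 12 with the filter of the paper. The calls lost with DESeq2 were LINC00265 and LINC02755. It was 4 with 10 counts required in all 6 libraries, where 3 were lower because 8 of the 11 were no longer tested. It ran from 7 to 17 with a library left out (1 to 3 higher, 6 to 15 lower). With library totals alone 6 were higher and 3 lower, while 2295 of all genes were called in place of 775, 2267 of them higher and 28 lower. With a library left out, between 436 (without control 2) and 1468 (without control 3) of all genes were called. LINC genes called higher numbered 3 with no filter on low counts, 0 with the filter of the paper and 4 with the length offset. With that offset LINC01605, LINC01635 and LINC02755 lost their calls, and LINC00632, LINC00667, LINC01126, LINC01535 and LINC01719 gained one. The shares called over all genes with DESeq2, RLE factors, the other count filters and the length offset are not given here. Changes in the LINC counts under those settings therefore cannot be read as particular to LINC genes. The median of LINC genes minus that of all genes (-0.35) was -0.33 with no filter, -0.44 with 10 counts in all 6 libraries, -0.43 with the filter of the paper, -0.21 with the length offset, and -0.25 to -0.47 with a library left out. Called LINC transcripts (76) numbered 44 with library totals (26 higher, 18 lower), 19 with DESeq2 and 27 to 106 with a library left out. The matching shares over all transcripts are not given here. Switched LINC isoforms (0) numbered 3 with limma, 1 with the replicate block and 0 to 1 with a library left out. LINC01278 (-0.12) turned to 0.34 with library totals and ran from -0.35 to 0.064 with a library left out, above 0 without control 1. LINC02693 (0.08) turned to -0.16 with the length offset and ran from -0.11 to 0.25 with a library left out, below 0 without control 2 and without irradiated culture 2. The cause of these shifts was not tested. Among single genes, 284 values kept direction and side of the threshold, 63 lost it, 13 gained it and 5 reversed. Cultures of the same replicate number had r of deviations of -0.0433, 0.291 and 0.102 for numbers 1 to 3. For unlike numbers r ran from -0.335 to 0.256. With 3 cultures per group, these values cannot decide whether the numbers pair the cultures. The same 12 LINC genes were called with the replicate block. For 68 of 152 genes the mean count was under 20, which limits precision.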
